A study of Mus musculus with 34 samples.

Results

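The 36 genes described here encode the chains of collagens and laminins and the 4 proteins Nid1, Nid2, Hspg2 and Agrn, which sit with them in basement membranes. They were chosen by a rule on symbols, with earlier results of these data known. Every collagen alpha chain symbol (Col, a number, a and a number) and every laminin chain symbol (Lama, Lamb or Lamc and a number), and those 4 genes, were taken where the count tables of both experiments list them. They are 36 of the 13377 genes listed in both tables. There are 40 such genes among 14436 in the table of the Bcl2AdTG experiment and 38 among 13817 in that of the S100a8 experiment. By the structure that each chain forms they fall into 8 fibrillar collagens, 4 network collagens, 3 beaded filament collagens, 3 FACIT collagens, 2 multiplexins, 2 transmembrane and other collagens, 10 laminin chains, and 4 nidogens and basement membrane proteoglycans.

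Polyadenylated RNA of whole livers of male mice was sequenced, with 1 library per mouse. The Bcl2AdTG experiment held 5 HFD-fed Bcl2AdTG, 5 HFD-fed WT, 3 chow-fed Bcl2AdTG and 3 chow-fed WT mice, and the S100a8 experiment held 4 HFD-fed S100a8fl/flCx3cr1Cre, 5 HFD-fed S100a8fl/fl, 5 chow-fed S100a8fl/flCx3cr1Cre and 4 chow-fed S100a8fl/fl mice. Diets began at 8 weeks of age. The high-fat diet (HFD) had 60% and the chow diet 10% of its energy as fat. The diet lasted 3 months in the Bcl2AdTG experiment, and for the S100a8 experiment the sources give both 3 and 4 months. Bcl2AdTG mice carry a Cre-inducible Bcl2 transgene, which encodes an inhibitor of apoptosis, together with Cre under the adiponectin promoter, so that the transgene is aimed at adipocytes and not at cells of the liver, and WT mice are their littermates. S100a8fl/flCx3cr1Cre mice lose the floxed S100a8 gene in cells that express Cre from Cx3cr1, chiefly monocytes and macrophages, and their S100a8fl/fl littermates carry the same floxed alleles without Cre. The comparisons ask how far these liver RNAs differ between genotypes on HFD, between genotypes on chow, and between the diets within a genotype.

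Collagens are made of 3 alpha chains wound into a triple helix. Fibrillar collagens build the tensile fibers that accumulate in liver fibrosis and are made there mainly by hepatic stellate cells and portal fibroblasts. Network collagens, laminins, nidogens and perlecan form the sheet-like basement membranes of vessels, bile ducts and nerves. The wall of a normal liver sinusoid has no continuous basement membrane, and it gains more type IV collagen and laminin when fibrosis sets in.

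The libraries held 19639839 to 52395073 counts (median 27885752.5) in the Bcl2AdTG experiment and 18628257 to 25462106 counts (median 21841936.5) in the S100a8 experiment. Levels are given as CPM, the counts of a gene per 1000000 counts of its library after TMM scaling within an experiment, and are compared only within an experiment. In each list of values the mice stand in the order of their numbers. All 9 hepatocyte markers were in both tables, at a summed 67702 to 123592 CPM per library, as a liver label requires. No 2 libraries of a group agreed within sampling noise. The libraries least like their own groups were chow-fed WT mouse 2 and HFD-fed Bcl2AdTG mouse 6 (median Pearson correlation with the group over all genes 0.956 and 0.963, at least 0.97 in the other 32 libraries). Bcl2 itself was at 8.98 to 14.9 CPM in the 5 HFD-fed Bcl2AdTG livers, against 2.72 to 21.3 CPM in the 5 HFD-fed WT livers. The highest of these was HFD-fed WT mouse 1 and the other 4 HFD-fed WT livers lay between 2.72 and 2.94 CPM. Chow-fed Bcl2AdTG livers held 4.17 to 8.44 CPM and chow-fed WT livers 7.75 to 11.3 CPM of Bcl2. A transgene aimed at adipocytes gives no strict check of a liver label. Without HFD-fed WT mouse 1, 18 members instead of the 20 given further on were lower in Bcl2AdTG than in WT livers on HFD. S100a8 was not analysed here in the S100a8 experiment, so that its deletion was not checked in these livers.

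Divided by the exon length of the gene, the members covered a wide range of levels. Col18a1, the chain from which endostatin is cut, came first in every group: it averaged 151 ± 19.8 CPM per kb in HFD-fed Bcl2AdTG livers and 143 ± 15.1 CPM per kb in HFD-fed WT livers (5 livers per group, ± SD). It held 70.0% of the members' summed per-length level in HFD-fed Bcl2AdTG livers and 55.6% in HFD-fed WT livers. Col5a3, a type V chain, came second in both, at 15.9 ± 3.24 CPM per kb in HFD-fed Bcl2AdTG livers and 16.2 ± 1.75 CPM per kb in HFD-fed WT livers. Col1a1, the chain best known from liver fibrosis, averaged 8.33 ± 1.602 CPM per kb in HFD-fed WT livers. Thus in these 2 groups 2 chains that passed the test in no comparison made up most of the members' summed per-length level. In the S100a8 experiment some called chains stood above Col5a3. In HFD-fed S100a8fl/flCx3cr1Cre livers Col1a1 averaged 13.3 and Col3a1 12.6 CPM per kb, against 8.85 CPM per kb of Col5a3. In HFD-fed S100a8fl/fl livers Col1a1 averaged 11.2 and Col3a1 11.1 CPM per kb, against 9.31 CPM per kb of Col5a3.

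**Figure D1:**
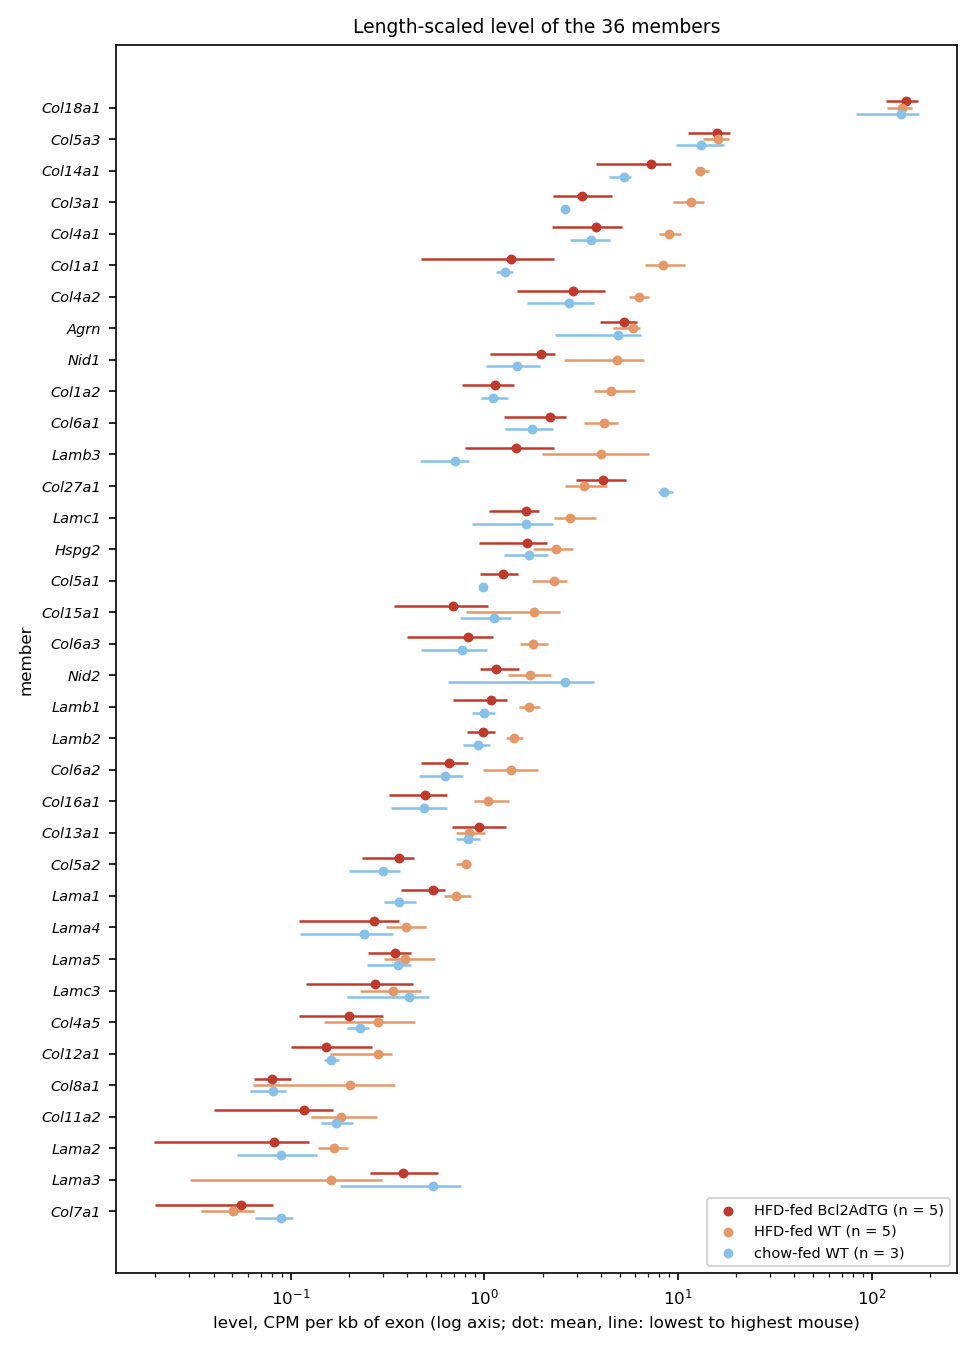
Mean level per length of each member (CPM per kb of exon, logarithmic axis) in 3 groups of the Bcl2AdTG experiment. Colors mark the groups, and lines run from the lowest to the highest mouse. The mean of Col18a1 stands at 151 CPM per kb in HFD-fed Bcl2AdTG and 143 CPM per kb in HFD-fed WT livers. The mean of every other member lies below 17 CPM per kb in these 2 groups.

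On HFD, 20 of the 36 members were lower in Bcl2AdTG than in WT livers and 0 were higher (edgeR quasi-likelihood test, adjusted p under 0.05 over all genes of the table). Among all 14436 genes 4.29% were lower and 2.42% higher. At an unadjusted p under 0.05, 23 members were lower and 2 higher, where 21.7% of all genes passed either way. DESeq2 also called 20 members lower and 0 higher, and 1488 of all genes either way. The median log2 fold change was -0.79 over the members and 0.01 over all genes, and 31 of the 36 members had a log2 fold change below 0. The lower members were 5 of 8 fibrillar, 3 of 4 network, 3 of 3 beaded filament and 3 of 3 FACIT collagens, 1 of 2 multiplexins, 4 of 10 laminin chains and 1 of 4 nidogens and proteoglycans. In bulk liver RNA, fewer cells of a type and less RNA per cell cannot be told apart. The mice were separate animals, the genotypes of each experiment being littermates, and the sources used here do not say which mice shared a litter, so that the p-values measure the spread between mice without a term for litter.

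In WT livers, HFD went with higher levels: 18 of the 36 members were higher and 2 lower in HFD-fed WT than in chow-fed WT livers, where 8.4% of all genes were higher and 6.98% lower. The median log2 fold change was 0.79 over the members and -0.02 over all genes. The labels do not say what mouse numbers mark. The test behind these calls used no pairing of mice. The deviations of same-numbered HFD-fed WT and chow-fed WT mice correlated at 0.134 to 0.15 over 3 pairs. HFD-fed WT mouse 3 correlated more with another chow-fed WT mouse. With the mouse number as a block over all 4 groups, 17 members were higher and 1 lower on HFD. In Bcl2AdTG livers, 0 members were called either way between HFD-fed and chow-fed mice, where 1.32% of all genes were higher and 1.26% lower (2.58% either way). Without HFD-fed Bcl2AdTG mouse 6, 2 members were called, and without mouse 3, 1. At an unadjusted p under 0.05, 3 members were higher and 4 lower, where 15.5% of all genes passed either way. DESeq2 called 0 members higher and 2 lower, and 784 of all genes either way. The median log2 fold change there was -0.08 over the members and 0.03 over all genes. On chow, 0 members differed between Bcl2AdTG and WT livers by edgeR, where 0.104% of all genes were higher and 0.0485% lower. Nor did any by DESeq2, which called 110 of all genes, or at an unadjusted p under 0.05, which 7.4% of all genes passed. The test of the difference between the diet effects, the interaction of HFD with Bcl2AdTG, called 3 members lower and 0 higher, where 0.256% of all genes were called lower and 0.229% higher. Of the other members, 16 had a negative interaction at an unadjusted p under 0.05 and 1 a positive one. Of all genes 14.9% passed this p in the interaction. DESeq2 called 8 of the 36 members lower and 0 higher, and 409 of all genes either way. The comparisons within this experiment share livers, so that they are not independent of each other.

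**Figure D2:**
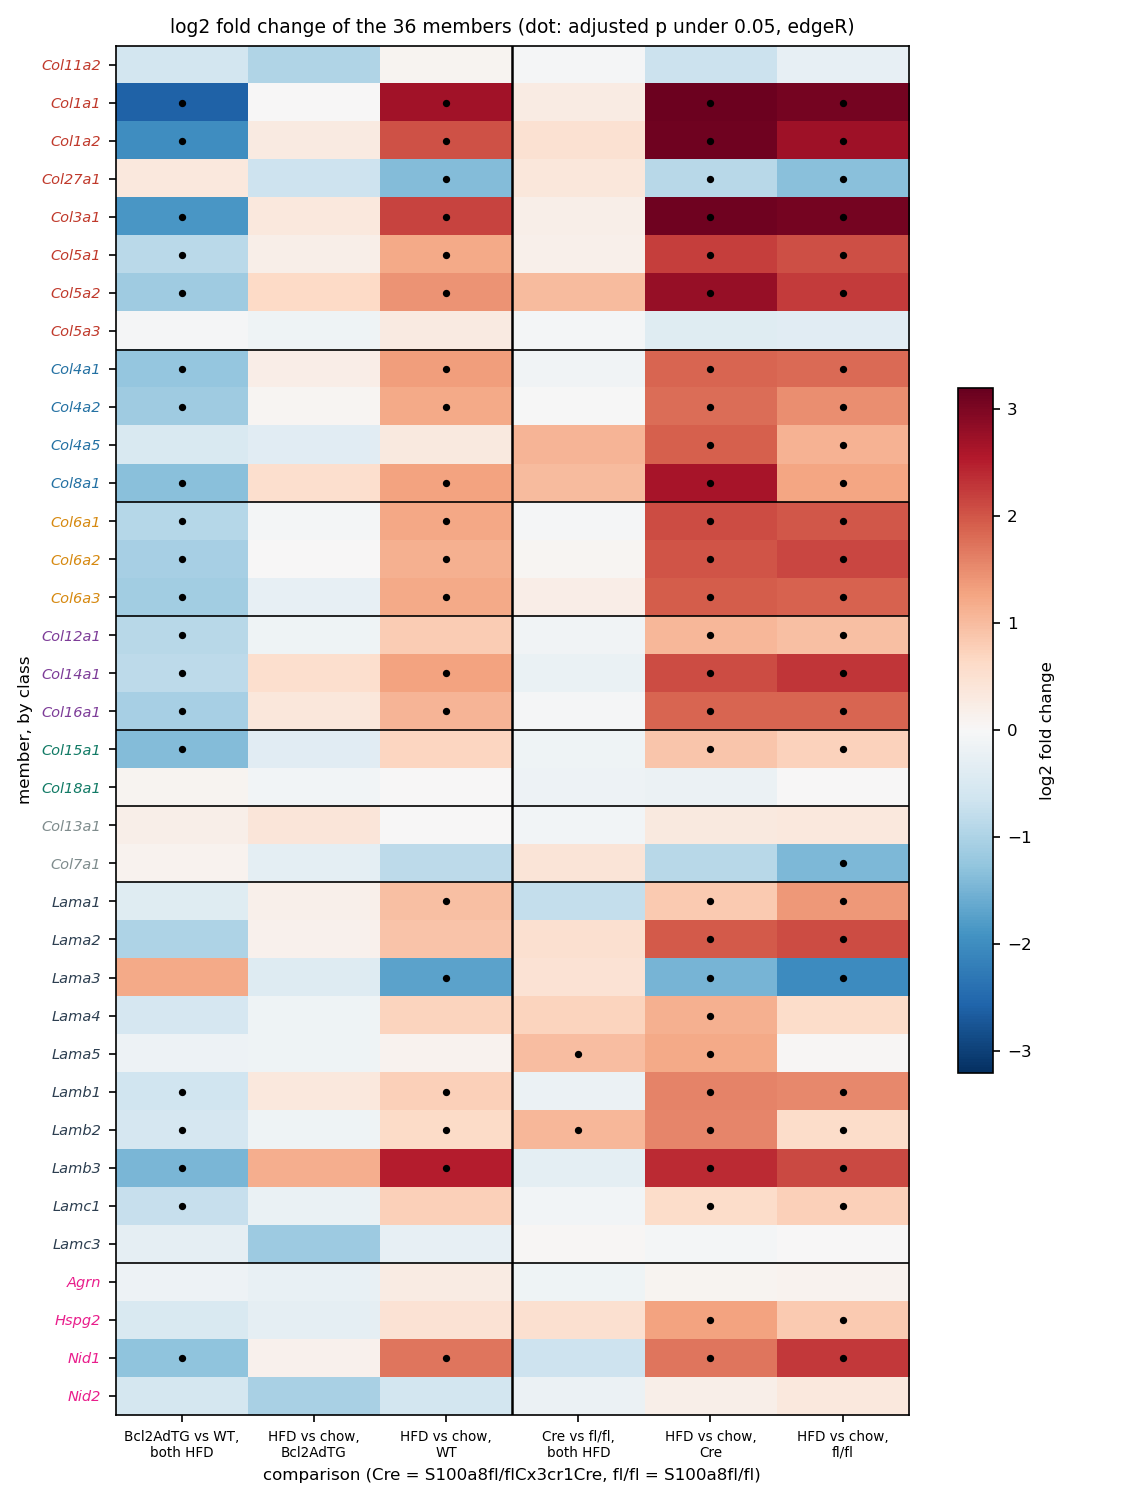
log2 fold change of the 36 members (one line per gene, ordered by class and colored on a scale centered at 0) in 6 comparisons, with a dot where the edgeR adjusted p is under 0.05. The column of Bcl2AdTG over WT on HFD holds 20 dots, all for lower levels, the column of HFD over chow in Bcl2AdTG livers holds 0, and the column of S100a8fl/flCx3cr1Cre over S100a8fl/fl on HFD holds 2.

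The 3 largest changes between the genotypes on HFD were those of fibrillar chains. Col1a1 and Col1a2, which together form type I collagen, and Col3a1, the chain of type III collagen, were each lower in HFD-fed Bcl2AdTG livers by a log2 fold change of about -1.87 to -2.58. Col1a1 was at 10.7, 15.1, 7.59, 3.101 and 8.83 CPM in HFD-fed Bcl2AdTG livers, against 47.9, 56.7, 44.6, 52.5 and 71.6 CPM in HFD-fed WT livers (fitted change -2.58 on the log2 scale, standard error 0.29, edgeR adjusted p = 0.000437). On chow, Col1a1 was at 5.96, 10.6 and 10.5 CPM in chow-fed Bcl2AdTG livers, against 9.22, 7.57 and 8.57 CPM in chow-fed WT livers. No HFD-fed Bcl2AdTG liver came near the lowest HFD-fed WT liver, and the 2 chow groups overlapped. Col1a2 was at 14.4, 17.7, 14.6, 9.53 and 14.1 CPM in HFD-fed Bcl2AdTG livers, against 45.7, 51.9, 51.5, 58.1 and 74.2 CPM in HFD-fed WT livers (fitted change -2.0 on the log2 scale, standard error 0.16, edgeR adjusted p = 1.4e-05). On chow, Col1a2 was at 9.89, 12.6 and 12.2 CPM in chow-fed Bcl2AdTG livers, against 12.03, 16.5 and 12.9 CPM in chow-fed WT livers. Again the HFD groups did not overlap, and HFD-fed Bcl2AdTG mouse 5 was the lowest liver for both type I chains. Col3a1 was at 34.02, 44.7, 27.7, 22.1 and 28.3 CPM in HFD-fed Bcl2AdTG livers, against 93.1, 110.2, 107, 128 and 134 CPM in HFD-fed WT livers (fitted change -1.87 on the log2 scale, standard error 0.16, edgeR adjusted p = 1.46e-05). On chow, Col3a1 was at 21.4, 25.6 and 27.2 CPM in chow-fed Bcl2AdTG livers, against 24.3, 26.3 and 26.8 CPM in chow-fed WT livers. For Col3a1 as for the type I chains, the HFD-fed WT livers stood above the other 3 groups, none of which reached them.

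**Figure D3:**
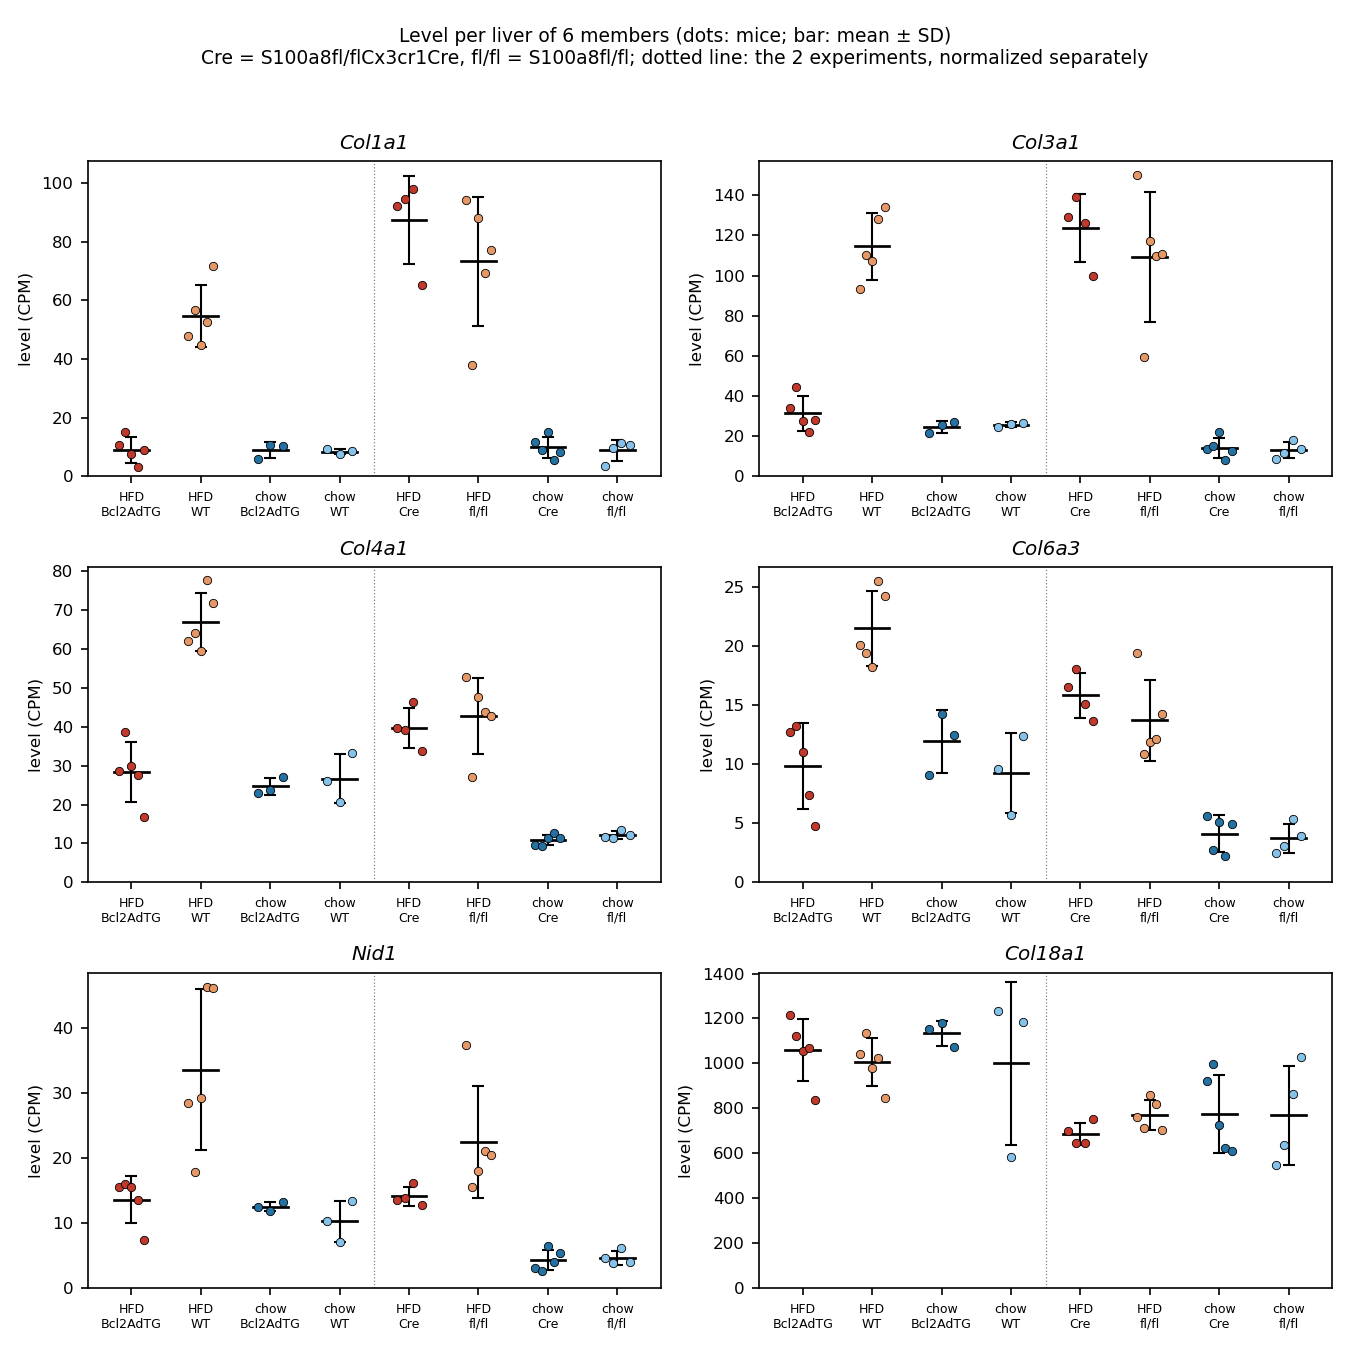
Level of members in each liver (CPM), with the groups of the Bcl2AdTG experiment and of the S100a8 experiment side by side, HFD-fed groups before chow-fed ones and a bar for the group mean. The 5 HFD-fed Bcl2AdTG livers lie between 3.10 and 15.1 CPM of Col1a1 and the 5 HFD-fed WT livers between 44.6 and 71.6 CPM.

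The diet effect on these 3 chains was tested directly for a difference between the genotypes, and they are the 3 members that the interaction called. HFD over chow gave a log2 fold change of Col1a1 of 0.02 in Bcl2AdTG livers and 2.69 in WT livers, an interaction of -2.67 (standard error 0.47, edgeR adjusted p = 0.0268). For Col1a2 it was 0.29 in Bcl2AdTG livers and 2.03 in WT livers, an interaction of -1.74 (standard error 0.27, edgeR adjusted p = 0.0187). For Col3a1 it was 0.34 in Bcl2AdTG livers and 2.15 in WT livers, an interaction of -1.81 (standard error 0.26, edgeR adjusted p = 0.0121). These calls rest on few chow-fed mice, and without chow-fed WT mouse 1 or chow-fed Bcl2AdTG mouse 3 the interaction called 0 members. The Col1a1 interaction was not called without chow-fed WT mouse 1 or 2 or chow-fed Bcl2AdTG mouse 2 or 3 (adjusted p = 0.0596 to 0.0912), that of Col1a2 without chow-fed WT mouse 1 or chow-fed Bcl2AdTG mouse 3 (adjusted p = 0.0532 to 0.0596), and that of Col3a1 without chow-fed WT mouse 1 or chow-fed Bcl2AdTG mouse 3 (adjusted p = 0.0532 to 0.0596). With the mouse number as a block, the Col1a1 interaction was -2.73 on the log2 scale and no longer called (edgeR adjusted p = 0.0655). This left 2 called members. The test without the block used no pairing of mice, and the labels do not say what mouse numbers mark.

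Type V collagen, which seeds fibrils and limits their width, moved less than types I and III. Col5a1 was at 11.1, 12.6, 12.2, 8.099 and 9.197 CPM in HFD-fed Bcl2AdTG livers, against 14.9, 22.8, 16.9, 21.8 and 21.1 CPM in HFD-fed WT livers (fitted change -0.87 on the log2 scale, standard error 0.15, edgeR adjusted p = 0.00274). On chow, Col5a1 was at 8.76, 10.9 and 8.61 CPM in chow-fed Bcl2AdTG livers, against 8.603, 8.18 and 8.33 CPM in chow-fed WT livers. Its HFD groups did not overlap. Col5a2 was at 3.803, 4.16, 3.74, 3.52 and 2.25 CPM in HFD-fed Bcl2AdTG livers, against 8.15, 6.89, 7.87, 8.14 and 7.702 CPM in HFD-fed WT livers (fitted change -1.14 on the log2 scale, standard error 0.18, edgeR adjusted p = 0.00177). On chow, Col5a2 was at 2.02, 2.39 and 2.31 CPM in chow-fed Bcl2AdTG livers, against 3.12, 1.93 and 3.53 CPM in chow-fed WT livers. HFD-fed WT livers were the highest group for both chains, with log2 fold changes over chow-fed WT livers of 1.22 (edgeR adjusted p = 0.000287) for Col5a1 and 1.44 (edgeR adjusted p = 0.00037) for Col5a2. Col5a3, the type V chain at a much higher level per length, was not called, with a log2 fold change of -0.03 (edgeR adjusted p = 0.933) between the HFD groups. Summed over Col1a1, Col1a2, Col3a1, Col5a1 and Col5a2, the level was 46.4 to 94.3 CPM in HFD-fed Bcl2AdTG livers, against 209.8 to 309 CPM in HFD-fed WT livers. The same sum was 48.0 to 62.1 CPM in chow-fed Bcl2AdTG livers, against 57.3 to 60.4 CPM in chow-fed WT livers.

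Col27a1, a fibrillar chain of cartilage and other tissues, went the other way on HFD. It was at 56.05, 38.2, 34.04, 44.3 and 39.99 CPM in HFD-fed WT livers, against 104, 123 and 103 CPM in chow-fed WT livers (fitted change -1.38 on the log2 scale, standard error 0.17, edgeR adjusted p = 8.97e-05), and the groups did not overlap. In the other genotype Col27a1 was at 46.5, 54.3, 69.9, 38.6 and 59.3 CPM in HFD-fed Bcl2AdTG livers, against 85.2, 84.7 and 84.8 CPM in chow-fed Bcl2AdTG livers, a log2 fold change of -0.66 (edgeR adjusted p = 0.0523). The HFD groups of the genotypes differed in Col27a1 by 0.34 (edgeR adjusted p = 0.206), and neither of these 2 differences was called. Col11a2, a minor cartilage chain, was called in no comparison.

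The promoters of Col1a2 and Col3a1 are shown because these chains moved together and yet begin with unlike sequence. The windows, from RefSeq on GRCm38.p6, run from 250 bases before to 50 bases after the start of the gene, 5′ to 3′ on the strand of the gene. Capitals mark matches on either strand to any of 4 motifs. They are GGGCGG, the core of the GC box bound by Sp1, then CCAAT, the box bound by NF-Y, then TATAAA, the TATA box, and finally TGACTCA, the AP-1 site. Col1a2 lies at chr6:4505368-4505667, plus strand, and Col3a1 at chr1:45311288-45311587, plus strand.
Col1a2: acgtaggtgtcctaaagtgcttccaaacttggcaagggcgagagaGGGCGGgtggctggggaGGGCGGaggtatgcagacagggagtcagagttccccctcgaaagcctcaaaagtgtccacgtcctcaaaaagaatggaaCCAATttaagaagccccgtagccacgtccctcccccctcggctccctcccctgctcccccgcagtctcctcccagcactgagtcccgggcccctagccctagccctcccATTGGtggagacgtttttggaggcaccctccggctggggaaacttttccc
Col3a1: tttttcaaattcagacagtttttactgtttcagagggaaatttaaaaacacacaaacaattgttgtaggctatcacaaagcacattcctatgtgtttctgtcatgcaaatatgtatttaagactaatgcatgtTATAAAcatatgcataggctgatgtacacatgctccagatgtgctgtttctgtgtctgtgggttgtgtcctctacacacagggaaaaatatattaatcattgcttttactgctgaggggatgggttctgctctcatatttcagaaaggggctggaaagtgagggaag
The Col1a2 window was 61% G or C with 2 GC boxes and 2 CCAAT matches, and the Col3a1 window was 37.7% G or C with 1 TATAAA match. The median over all 32851 mouse windows was 52.7% G or C. Of the members, 26 had a window, 30 windows in all. GGGCGG occurred in 70% of the members' windows and 35.7% of all windows, CCAAT in 33.3% of the members' windows and 37.4% of all, TATAAA in 10% of the members' windows and 13.6% of all, and TGACTCA in 3.33% of the members' windows and 5.2% of all. A match is a description of these letters only.

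Col4a1 and Col4a2, the type IV chains that make the framework of basement membranes, fell together. Col4a1 was at 28.6, 38.6, 29.9, 27.6 and 16.8 CPM in HFD-fed Bcl2AdTG livers, against 62.03, 64.1, 59.4, 77.7 and 71.7 CPM in HFD-fed WT livers (fitted change -1.24 on the log2 scale, standard error 0.17, edgeR adjusted p = 0.00124). On chow, Col4a1 was at 23.1, 23.8 and 27.1 CPM in chow-fed Bcl2AdTG livers, against 25.98, 20.6 and 33.4 CPM in chow-fed WT livers. HFD-fed Bcl2AdTG mouse 6 had the lowest level of all, and no HFD-fed Bcl2AdTG liver reached the HFD-fed WT range. Col4a2 was at 18.5, 27.7, 21.6, 17.4 and 9.75 CPM in HFD-fed Bcl2AdTG livers, against 39.8, 39.5, 36.9, 46.5 and 46.7 CPM in HFD-fed WT livers (fitted change -1.13 on the log2 scale, standard error 0.23, edgeR adjusted p = 0.00741). On chow, Col4a2 was at 15.7, 18.1 and 20.8 CPM in chow-fed Bcl2AdTG livers, against 18.6, 11.02 and 24.4 CPM in chow-fed WT livers. HFD-fed WT over chow-fed WT livers gave a log2 fold change of 1.33 (edgeR adjusted p = 0.000604) for Col4a1 and 1.22 (edgeR adjusted p = 0.00676) for Col4a2. The interaction on the log2 scale was -1.13 (edgeR adjusted p = 0.0887) for Col4a1 and -1.15 (edgeR adjusted p = 0.176) for Col4a2, and neither was called. Col4a5, an X-linked type IV chain, had a log2 fold change of -0.48 (edgeR adjusted p = 0.373) between the HFD groups. Col8a1, a short network collagen of vessel walls, was at no more than 2.70 CPM in any liver of this experiment. Its log2 fold change was -1.33 (edgeR adjusted p = 0.0303) in HFD-fed Bcl2AdTG over HFD-fed WT livers, a call that was lost without HFD-fed WT mouse 3, 4 or 5 or HFD-fed Bcl2AdTG mouse 1, 2 or 6 (adjusted p = 0.0546 to 0.0959). Over chow-fed WT livers HFD-fed WT livers had 1.29 (edgeR adjusted p = 0.0474) for Col8a1, lost with the mouse number as a block (0.82, adjusted p = 0.21) and without HFD-fed WT mouse 3, 4 or 5 or chow-fed WT mouse 1, 2 or 3 (adjusted p = 0.0731 to 0.128).

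Col4a1 and Col4a2 lie head to head on chromosome 8. Their starts are 21 bases apart, and the genes overlap only in that short stretch. Reads there cannot be given to 1 gene with certainty, since the sources do not say whether counting used the strand. Their promoter windows share 78 bases, and both are shown because the 2 chains were called in the same comparisons. Col4a1 lies at chr8:11312777-11313076, minus strand, and Col4a2 at chr8:11312555-11312854, plus strand, with capitals for the same motifs.
Col4a1: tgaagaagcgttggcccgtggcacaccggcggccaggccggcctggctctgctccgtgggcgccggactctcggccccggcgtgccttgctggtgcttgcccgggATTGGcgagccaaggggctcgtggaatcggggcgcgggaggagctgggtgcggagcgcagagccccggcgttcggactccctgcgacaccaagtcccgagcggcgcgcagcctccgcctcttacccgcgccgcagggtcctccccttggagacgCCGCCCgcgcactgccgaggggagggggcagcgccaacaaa
Col4a2: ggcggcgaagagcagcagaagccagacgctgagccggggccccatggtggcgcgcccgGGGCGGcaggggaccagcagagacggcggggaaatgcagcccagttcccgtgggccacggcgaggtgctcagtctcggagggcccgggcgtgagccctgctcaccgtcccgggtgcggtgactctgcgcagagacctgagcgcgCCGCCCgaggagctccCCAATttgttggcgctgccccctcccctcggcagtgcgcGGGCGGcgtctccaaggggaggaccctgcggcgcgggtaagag
The Col4a1 window was 74% and the Col4a2 window 73.7% G or C. The ratio of Col4a1 to Col4a2 in CPM was 1.53 ± 0.142 in HFD-fed Bcl2AdTG livers and 1.60 ± 0.0532 in HFD-fed WT livers (5 livers per group, ± SD), while the ratio of Col1a1 to Col1a2 was 0.614 ± 0.205 in HFD-fed Bcl2AdTG livers and 0.975 ± 0.0946 in HFD-fed WT livers. These ratios are descriptions without a test.

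Type VI collagen forms beaded microfilaments around cells, and its 3 chains listed in both tables fell by similar amounts. Col6a1 was at 11.5, 11.6, 10.4, 8.93 and 5.56 CPM in HFD-fed Bcl2AdTG livers, against 15.6, 14.4, 18.8, 21.02 and 21.5 CPM in HFD-fed WT livers (fitted change -0.92 on the log2 scale, standard error 0.20, edgeR adjusted p = 0.0114). On chow, Col6a1 was at 8.68, 12.4 and 8.82 CPM in chow-fed Bcl2AdTG livers, against 7.81, 5.63 and 9.88 CPM in chow-fed WT livers. The highest HFD-fed Bcl2AdTG liver stayed below the lowest HFD-fed WT liver. Col6a3 was at 12.7, 13.2, 11.05, 7.36 and 4.78 CPM in HFD-fed Bcl2AdTG livers, against 20.02, 19.4, 18.2, 25.5 and 24.2 CPM in HFD-fed WT livers (fitted change -1.12 on the log2 scale, standard error 0.25, edgeR adjusted p = 0.0132). On chow, Col6a3 was at 9.03, 14.2 and 12.5 CPM in chow-fed Bcl2AdTG livers, against 9.597, 5.67 and 12.4 CPM in chow-fed WT livers. Col6a3 was lowest in HFD-fed Bcl2AdTG mouse 6. Col6a2, the neighbor of Col6a1 on chromosome 10, had a log2 fold change of -1.05 (edgeR adjusted p = 0.00869) between the HFD groups. With the mouse number as a block, the calls of Col6a1, Col6a2 and Col6a3 between the HFD groups were lost (edgeR adjusted p = 0.079 to 0.082). In HFD-fed WT over chow-fed WT livers the changes were 1.23 (edgeR adjusted p = 0.00282) for Col6a1, 1.13 (edgeR adjusted p = 0.00794) for Col6a2 and 1.22 (edgeR adjusted p = 0.0115) for Col6a3. The Col6a3 call was lost without chow-fed WT mouse 2 (adjusted p = 0.0543).

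FACIT collagens bind to the surface of fibrils. Col14a1, a FACIT chain found in stellate cells of the liver, was at 57.8, 64.7, 57.1, 48.8 and 26.6 CPM in HFD-fed Bcl2AdTG livers, against 85.6, 86.99, 88.8, 102 and 90.8 CPM in HFD-fed WT livers (fitted change -0.83 on the log2 scale, standard error 0.17, edgeR adjusted p = 0.0094). On chow, Col14a1 was at 36.7, 32.3 and 36.9 CPM in chow-fed Bcl2AdTG livers, against 40.1, 30.8 and 39.9 CPM in chow-fed WT livers. HFD-fed WT livers were the highest group without overlap, and they exceeded chow-fed WT livers by 1.3 (edgeR adjusted p = 0.000706). Col16a1 changed by -1.07 (edgeR adjusted p = 0.00782) in HFD-fed Bcl2AdTG over HFD-fed WT livers and by 1.09 (edgeR adjusted p = 0.00923) in HFD-fed WT over chow-fed WT livers. Col12a1 had -0.89 (edgeR adjusted p = 0.0412) in HFD-fed Bcl2AdTG over HFD-fed WT livers and 0.81 (edgeR adjusted p = 0.0719) in HFD-fed WT over chow-fed WT livers. The call of Col12a1 was lost without HFD-fed WT mouse 1, 3, 4 or 5 or HFD-fed Bcl2AdTG mouse 1, 3, 5 or 6 (adjusted p = 0.0723 to 0.101).

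The 2 multiplexins, basement membrane collagens with a cleavable end, differed. Col15a1, found around vessels, was at 4.202, 4.65, 6.62, 2.18 and 4.18 CPM in HFD-fed Bcl2AdTG livers, against 12.4, 5.12, 12.6, 15.6 and 11.98 CPM in HFD-fed WT livers (fitted change -1.39 on the log2 scale, standard error 0.30, edgeR adjusted p = 0.0118). On chow, Col15a1 was at 3.66, 5.94 and 7.56 CPM in chow-fed Bcl2AdTG livers, against 8.74, 4.77 and 7.99 CPM in chow-fed WT livers. HFD-fed WT mouse 2, at 5.12 CPM, lay within the range of the HFD-fed Bcl2AdTG livers, and the other 4 HFD-fed WT livers lay above it. With the mouse number as a block, the Col15a1 call was lost (edgeR adjusted p = 0.0619). Col18a1 was at 1216, 1120.3, 1053, 1068 and 839 CPM in HFD-fed Bcl2AdTG livers, against 1044, 1135, 980.5, 1024 and 845 CPM in HFD-fed WT livers (fitted change on the log2 scale 0.08, edgeR adjusted p = 0.831). On chow, Col18a1 was at 1153, 1178 and 1072 CPM in chow-fed Bcl2AdTG livers, against 1232, 584 and 1185 CPM in chow-fed WT livers. The groups overlapped in every comparison of Col18a1, and chow-fed WT mouse 2 was the lowest liver. The transmembrane chain Col13a1 and Col7a1, the chain of the anchoring fibrils of skin, were not called in this experiment.

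Of the 10 laminin chains, the beta chains Lamb1, Lamb2 and Lamb3 and the gamma chain Lamc1 were lower in Bcl2AdTG livers on HFD, and no alpha chain passed the test between the genotypes. Lamb3, the beta chain of the laminin that anchors epithelia, had the largest change of them. It was at 5.24, 12.9, 8.78, 6.201 and 15.1 CPM in HFD-fed Bcl2AdTG livers, against 24.8, 31.6, 47.05, 13.2 and 15.8 CPM in HFD-fed WT livers (fitted change -1.46 on the log2 scale, standard error 0.34, edgeR adjusted p = 0.0172). On chow, Lamb3 was at 3.31, 3.98 and 5.72 CPM in chow-fed Bcl2AdTG livers, against 5.52, 3.08 and 5.37 CPM in chow-fed WT livers. HFD-fed Bcl2AdTG mouse 6 overlapped the HFD-fed WT range, and HFD-fed WT over chow-fed WT livers gave 2.51 (edgeR adjusted p = 0.00131). Lamb3 overlaps Hsd11b1, a cortisone reductase of hepatocytes, on the opposite strand. Hsd11b1 was at 642 to 877 CPM in HFD-fed Bcl2AdTG livers, against 459 to 520 CPM in HFD-fed WT livers. Lamb3 also overlaps G0s2 on the opposite strand, at 87.0 to 422 CPM in HFD-fed Bcl2AdTG livers, against 102 to 188 CPM in HFD-fed WT livers. Gm37691 overlaps Lamb3 on the same strand, so that strand cannot part their reads. The part of these overlaps in the Lamb3 change was not tested. Counts of such overlapping genes are uncertain because the strand used in counting is not stated.

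Lamb1, the widespread beta chain of embryonic and vascular laminins, was at 11.5, 9.92, 13.04, 12.7 and 6.81 CPM in HFD-fed Bcl2AdTG livers, against 15.2, 19.2, 14.9, 15.99 and 18.7 CPM in HFD-fed WT livers (fitted change -0.63 on the log2 scale, standard error 0.15, edgeR adjusted p = 0.0203). On chow, Lamb1 was at 9.07, 8.44 and 8.19 CPM in chow-fed Bcl2AdTG livers, against 8.603, 11.3 and 9.68 CPM in chow-fed WT livers. The change was small, and the call was lost without HFD-fed WT mouse 5 (adjusted p = 0.0583). Lamc1, the gamma chain shared by most laminins, was at 14.4, 15.6, 15.9, 13.4 and 8.78 CPM in HFD-fed Bcl2AdTG livers, against 20.8, 18.9, 22.6, 31.1 and 21.3 CPM in HFD-fed WT livers (fitted change -0.75 on the log2 scale, standard error 0.21, edgeR adjusted p = 0.0453). On chow, Lamc1 was at 15.96, 16.2 and 15.2 CPM in chow-fed Bcl2AdTG livers, against 14.9, 7.15 and 18.7 CPM in chow-fed WT livers. The call of Lamc1 was lost without HFD-fed WT mouse 1, 3, 4 or 5 or HFD-fed Bcl2AdTG mouse 1, 2, 3, 5 or 6 (adjusted p = 0.0524 to 0.136). Lamb2, the beta chain of synaptic and mature vascular laminins, changed by -0.53 (edgeR adjusted p = 0.0291) in HFD-fed Bcl2AdTG over HFD-fed WT livers, lost without HFD-fed WT mouse 4 or 5 or HFD-fed Bcl2AdTG mouse 1, 5 or 6 (adjusted p = 0.0571 to 0.0787). In HFD-fed WT over chow-fed WT livers Lamb1 changed by 0.77 (edgeR adjusted p = 0.00923) and Lamb2 by 0.62 (edgeR adjusted p = 0.018), and the Lamb2 call was lost without chow-fed WT mouse 2 (adjusted p = 0.0813).

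The alpha chains decide which receptors a laminin binds. Lama2, the chain of muscle and nerve, was at 1.702, 2.03, 1.81, 0.833 and 0.322 CPM in HFD-fed Bcl2AdTG livers, against 2.59, 2.86, 2.26, 3.24 and 2.77 CPM in HFD-fed WT livers (fitted change on the log2 scale -0.99, edgeR adjusted p = 0.114). On chow, Lama2 was at 0.895, 1.16 and 1.73 CPM in chow-fed Bcl2AdTG livers, against 1.302, 0.863 and 2.23 CPM in chow-fed WT livers. Lama4, the chain of endothelial basement membranes, was at 3.46, 3.88, 4.404, 3.19 and 1.33 CPM in HFD-fed Bcl2AdTG livers, against 4.22, 3.76, 3.91, 5.84 and 6.01 CPM in HFD-fed WT livers (fitted change on the log2 scale -0.53, edgeR adjusted p = 0.308). On neither gene did the genotypes pass the test. On chow, Lama4 was at 3.19, 3.73 and 3.88 CPM in chow-fed Bcl2AdTG livers, against 3.22, 1.36 and 4.07 CPM in chow-fed WT livers. Lama3, the alpha chain of the same epithelial laminin as Lamb3, was at 3.204, 0.765, 2.67, 1.71 and 0.324 CPM in HFD-fed WT livers, against 8.19, 1.93 and 7.41 CPM in chow-fed WT livers (fitted change -1.72 on the log2 scale, standard error 0.52, edgeR adjusted p = 0.0353). In the other genotype Lama3 was at 2.77, 6.17, 3.57, 5.18 and 2.76 CPM in HFD-fed Bcl2AdTG livers, against 4.52, 6.66 and 5.25 CPM in chow-fed Bcl2AdTG livers. Lama3 was thus lower in HFD-fed WT livers while Lamb3 was higher, although chow-fed WT mouse 2 fell within the HFD-fed WT range of Lama3, and the call was lost with the mouse number as a block (-1.62, adjusted p = 0.0963) and without HFD-fed WT mouse 2 or 4 or chow-fed WT mouse 1 or 3 (adjusted p = 0.0686 to 0.13). Lama1, the alpha chain of early embryos, was higher on HFD in WT livers, with a log2 fold change of 0.97 (edgeR adjusted p = 0.00229). Lama5 and Lamc3 were not called in this experiment.

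Nid1, which links laminin to type IV collagen, was the only nidogen or proteoglycan to pass the test here. It was at 15.6, 16.1, 15.5, 13.7 and 7.403 CPM in HFD-fed Bcl2AdTG livers, against 28.6, 17.9, 29.2, 46.3 and 46.2 CPM in HFD-fed WT livers (fitted change -1.29 on the log2 scale, standard error 0.25, edgeR adjusted p = 0.00688). On chow, Nid1 was at 12.6, 11.9 and 13.2 CPM in chow-fed Bcl2AdTG livers, against 10.4, 7.07 and 13.4 CPM in chow-fed WT livers. The HFD groups did not overlap, HFD-fed Bcl2AdTG mouse 6 was the lowest of the HFD-fed livers, and HFD-fed WT over chow-fed WT livers gave 1.71 (edgeR adjusted p = 0.00166). Hspg2, which encodes perlecan, was at 27.5, 25.2, 30.4, 22.3 and 13.4 CPM in HFD-fed Bcl2AdTG livers, against 29.8, 31.9, 25.4, 40.9 and 39.5 CPM in HFD-fed WT livers (fitted change on the log2 scale -0.49, edgeR adjusted p = 0.147). On chow, Hspg2 was at 28.1, 30.6 and 27.7 CPM in chow-fed Bcl2AdTG livers, against 24.1, 18.1 and 30.6 CPM in chow-fed WT livers. Hspg2, Nid2 and Agrn, the heparan sulfate proteoglycan of the neuromuscular junction, were not called in any comparison of this experiment.

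Other genes of collagen handling were counted from lists. In Bcl2AdTG over WT livers on HFD, 4.29% of all genes were lower and 2.42% higher. Of 30 genes of collagen processing and crosslinking in the table, 9 were lower and 0 higher in this comparison (median log2 fold change -0.35). They included Lox, a crosslinking lysyl oxidase, at -2.0 (edgeR adjusted p = 0.00187), and its relative Loxl2 at -1.21 (edgeR adjusted p = 0.00184). They also included Sparc, a collagen-binding protein, at -1.02 (edgeR adjusted p = 0.00124), and Adamts2, which trims procollagen, at -0.83 (edgeR adjusted p = 0.00177). In HFD-fed WT over chow-fed WT livers 8 of the 30 were higher and 1 lower, where 8.4% of all genes were higher and 6.98% lower. Adamts2 was the 1 gene of this list that the interaction called, at -1.08 (edgeR adjusted p = 0.0326), where 0.256% of all genes were lower. Of 20 profibrotic signals, 7 fell and 0 rose in the Bcl2AdTG livers relative to WT livers on HFD (median -0.67), among them Thbs1, an activator of latent TGF-beta, at -2.23 (edgeR adjusted p = 0.000549), and Ccn2, connective tissue growth factor, at -1.65 (edgeR adjusted p = 0.0151). Of 15 receptors for collagen and laminin, 0 were called between the HFD groups, with a median log2 fold change of -0.30.

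Markers of the cell types of the liver were counted in the same comparisons, and their part in the results was not tested. All 14 stellate cell markers were in the table. Their sum was 398 to 539 CPM in HFD-fed Bcl2AdTG livers, against 512 to 646 CPM in HFD-fed WT livers, with 1 of 14 lower and 0 higher, where 4.29% of all genes were lower. In chow-fed livers the sum was 341 to 369 CPM for Bcl2AdTG and 342 to 449 CPM for WT. The 9 portal or adventitial fibroblast markers in the table summed to 33.8 to 51.3 CPM in HFD-fed Bcl2AdTG livers, against 57.6 to 77.6 CPM in HFD-fed WT livers, with 3 lower. The 12 endothelial markers summed to 224 to 360 CPM in HFD-fed Bcl2AdTG livers, against 320 to 393 CPM in HFD-fed WT livers, with 3 lower. No marker of these 3 lists was at 0 in every library of a group. Of the 8 macrophage markers, 3 were lower and 0 higher on HFD, and their sum was 101 to 319 CPM in HFD-fed Bcl2AdTG livers, against 146 to 288 CPM in HFD-fed WT livers. Of the 9 hepatocyte markers, 2 were higher and 0 lower, where 2.42% of all genes were higher. In HFD-fed over chow-fed WT livers, where 8.4% of all genes were higher and 6.98% lower, 6 of 8 macrophage, 4 of 14 stellate cell, 3 of 12 endothelial and 2 of 9 portal or adventitial fibroblast markers were higher and 0 of them lower, and 4 of 9 hepatocyte markers were lower and 0 higher. The clock gene Dbp was at 24.9 to 34.7 CPM in HFD-fed WT livers, against 0.493 to 1.404 CPM in chow-fed WT livers, and at 34.6 to 106 CPM in HFD-fed Bcl2AdTG livers, against 2.17 to 13.1 CPM in chow-fed Bcl2AdTG livers. Dbp therefore split the diets in both genotypes. On HFD its mean level was 67.1 ± 29.7 CPM with the transgene (SD, n = 5), against 30.4 ± 3.66 CPM without it (SD, n = 5), and 1 Bcl2AdTG liver lay within the WT range. The part of Dbp in the comparisons of diet and of genotype was not tested. Without HFD-fed Bcl2AdTG mouse 6 and chow-fed WT mouse 2, an alternative chosen after seeing the data, 18 members were lower in Bcl2AdTG than in WT livers on HFD, 16 were higher and 3 lower in HFD-fed WT than in chow-fed WT livers, and the interaction called 3. In HFD-fed over chow-fed Bcl2AdTG livers 2 members were then higher and 2 lower, Col5a2 (0.76) and Col14a1 (0.69) being the higher ones.

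In the S100a8 experiment both genotypes responded to HFD. Of the 36 members, 26 were higher and 2 lower in HFD-fed than in chow-fed S100a8fl/flCx3cr1Cre livers, where 16.1% of all 13817 genes were higher and 12.8% lower (28.9% either way). In S100a8fl/fl livers 24 were higher and 3 lower on HFD, where 14.5% of all genes were higher and 13% lower. The median log2 fold change over the members was 1.58 in S100a8fl/flCx3cr1Cre and 1.18 in S100a8fl/fl livers, and the median over all genes was -0.01 in both. Between the genotypes on HFD, 2 members were higher and 0 lower, where 0.854% of all genes were higher and 0.0289% lower. At an unadjusted p under 0.05, 9 members were higher and 2 lower there, where 7.74% of all genes passed either way. DESeq2 called 4 members higher and 0 lower, and 184 of all genes either way. On chow 0 members were called between the genotypes, as were 0% of all genes. There 1 member had an unadjusted p under 0.05, as had 5.61% of all genes, and DESeq2 called 0 members and 5 of all genes. The interaction of HFD with S100a8fl/flCx3cr1Cre called 0 members higher or lower, where 0.13% of all genes were called higher and 0% lower. At an unadjusted p under 0.05 it gave 4 members, where 6.36% of all genes passed. DESeq2 called 82 of all genes for this interaction, 2 of them members. These 2 were Lamb2 and Lama5.

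**Figure D4:**
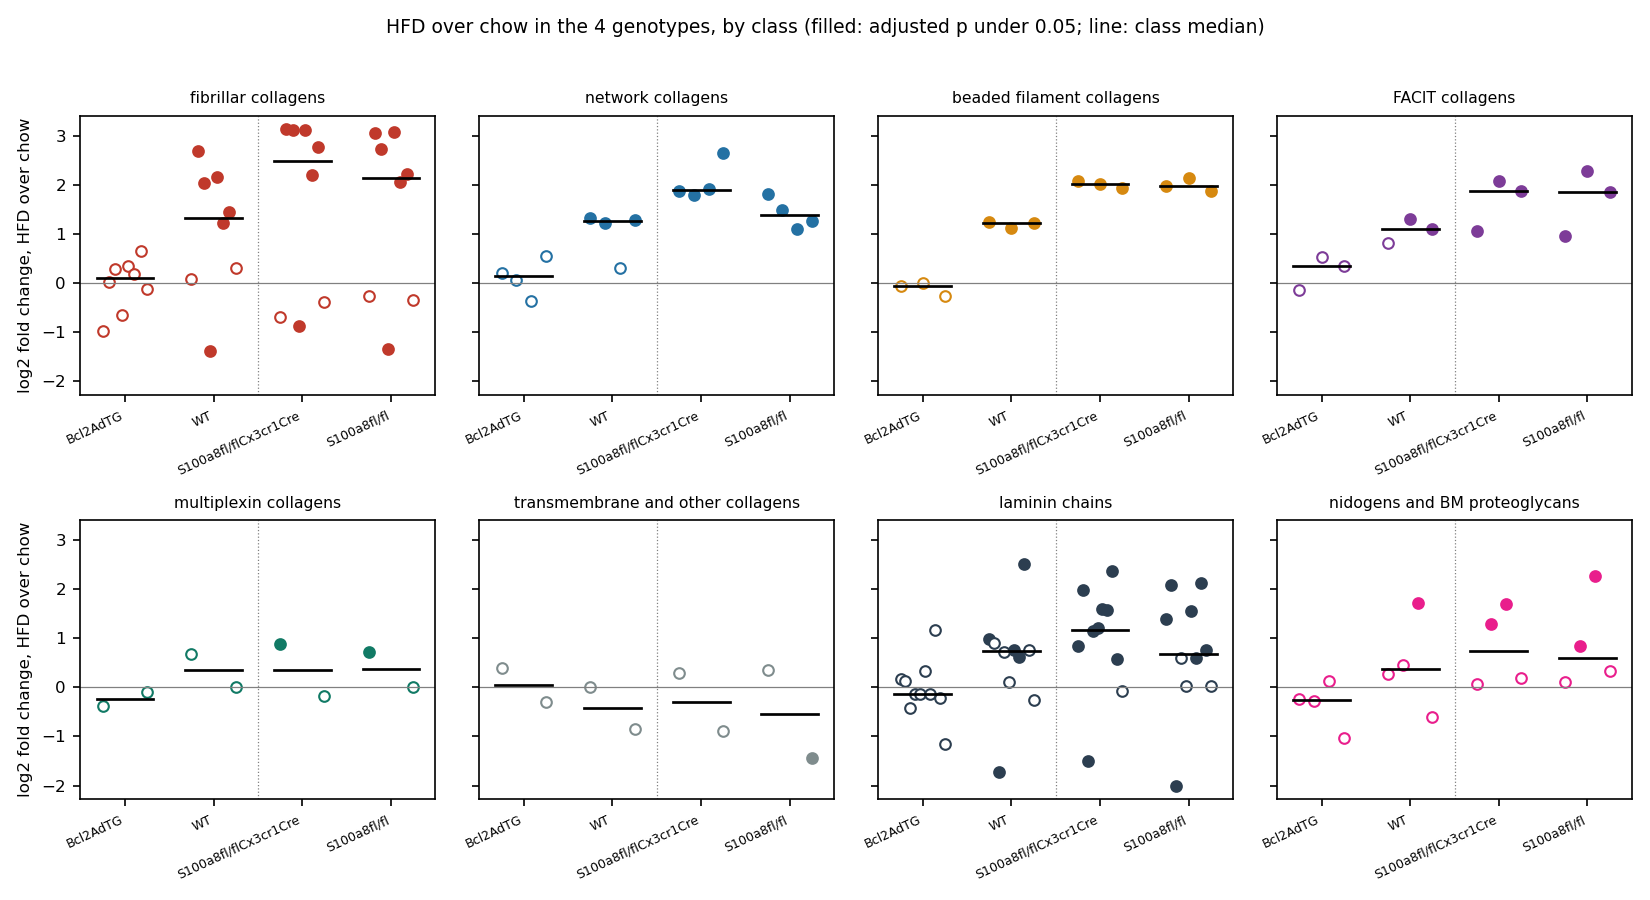
log2 fold change of HFD over chow for each member, one panel per class, in Bcl2AdTG, WT, S100a8fl/flCx3cr1Cre and S100a8fl/fl livers (filled points: edgeR adjusted p under 0.05, lines: class medians). The 3 beaded filament chains lie between -0.27 and 0.00 in Bcl2AdTG livers, against 1.13 to 1.23 in WT livers, and between 1.88 and 2.15 in the S100a8 genotypes.

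The diet effects in WT and in the S100a8 genotypes come from separate mice. All 18 members called higher on HFD in WT livers were among the 24 called higher in S100a8fl/fl livers, which is 100% of the first list and 75% of the second, and among the 26 called higher in S100a8fl/flCx3cr1Cre livers (100% and 69.2%). Over the genes in both tables, 66.9% of those higher on HFD in WT livers were also higher in S100a8fl/fl livers and 66.3% in S100a8fl/flCx3cr1Cre livers. Col27a1 and Lama3, the 2 members lower on HFD in WT livers, were also lower on HFD in both S100a8 genotypes. Of the genes in both tables that were lower on HFD in WT livers, 55.2% were also lower in S100a8fl/fl livers and 53.6% in S100a8fl/flCx3cr1Cre livers. The 24 members higher in S100a8fl/fl livers were all among the 26 of S100a8fl/flCx3cr1Cre livers (100% and 92.3%), against 70.8% and 65.1% over the genes in both tables. The 2 added by S100a8fl/flCx3cr1Cre livers were Lama4 and Lama5.

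The type I and III chains had the 3 largest changes with diet in both genotypes. Col1a1 was at 92, 94.6, 97.9 and 65.1 CPM in HFD-fed S100a8fl/flCx3cr1Cre livers, against 94.1, 37.8, 88.01, 69.2 and 77.1 CPM in HFD-fed S100a8fl/fl livers. On chow, Col1a1 was at 11.8, 8.86, 14.9, 5.51 and 8.26 CPM in chow-fed S100a8fl/flCx3cr1Cre livers, against 3.58, 9.59, 11.5 and 10.7 CPM in chow-fed S100a8fl/fl livers. HFD over chow gave a log2 fold change of 3.14 in S100a8fl/flCx3cr1Cre livers (standard error 0.30, edgeR adjusted p = 6.01e-07) and 3.05 in S100a8fl/fl livers (standard error 0.33, edgeR adjusted p = 2.39e-06). Col1a2 was at 97.8, 97.6, 103 and 69.97 CPM in HFD-fed S100a8fl/flCx3cr1Cre livers, against 85, 39.3, 73.4, 59.99 and 71.4 CPM in HFD-fed S100a8fl/fl livers. On chow, Col1a2 was at 10.4, 10.04, 14.02, 7.95 and 10.4 CPM in chow-fed S100a8fl/flCx3cr1Cre livers, against 7.94, 9.65, 11.4 and 10.8 CPM in chow-fed S100a8fl/fl livers. Its log2 fold change with diet was 3.12 (edgeR adjusted p = 2.24e-09) in S100a8fl/flCx3cr1Cre and 2.72 (edgeR adjusted p = 1.1e-07) in S100a8fl/fl livers. Like Col1a1, it was higher in every HFD-fed liver than in any chow-fed one. Col3a1 was at 129, 139, 126 and 99.6 CPM in HFD-fed S100a8fl/flCx3cr1Cre livers, against 149.99, 59.2, 117.03, 109.5 and 111 CPM in HFD-fed S100a8fl/fl livers. On chow, Col3a1 was at 13.5, 14.9, 22.1, 8.34 and 12.6 CPM in chow-fed S100a8fl/flCx3cr1Cre livers, against 8.39, 11.7, 18.2 and 13.6 CPM in chow-fed S100a8fl/fl livers. HFD over chow gave it a log2 fold change of 3.11 (edgeR adjusted p = 9.59e-08) in S100a8fl/flCx3cr1Cre and 3.07 (edgeR adjusted p = 4.16e-07) in S100a8fl/fl livers. For all 3 chains every HFD-fed liver exceeded every chow-fed one, HFD-fed S100a8fl/fl mouse 2 was the lowest of the HFD-fed livers, and the HFD-fed genotypes overlapped. Between the HFD-fed genotypes the log2 fold change was 0.25 (edgeR adjusted p = 0.93) for Col1a1, 0.48 (edgeR adjusted p = 0.411) for Col1a2 and 0.18 (edgeR adjusted p = 0.935) for Col3a1.

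Col5a1 was at 18.3, 15.9, 17.3 and 15.6 CPM in HFD-fed S100a8fl/flCx3cr1Cre livers, against 20.4, 12, 14.3, 13.8 and 14.5 CPM in HFD-fed S100a8fl/fl livers. On chow, Col5a1 was at 3.72, 3.25, 5.53, 2.28 and 3.32 CPM in chow-fed S100a8fl/flCx3cr1Cre livers, against 4.27, 2.83, 3.81 and 3.52 CPM in chow-fed S100a8fl/fl livers. Between the diets its log2 fold change was 2.21 (edgeR adjusted p = 1.69e-07) in S100a8fl/flCx3cr1Cre and 2.05 (edgeR adjusted p = 1.02e-06) in S100a8fl/fl livers. The diets did not overlap for this minor fibrillar chain, and the HFD-fed genotypes did. Col5a2, encoded beside Col3a1 on chromosome 1, was at 12.8, 11.8, 15.7 and 12.6 CPM in HFD-fed S100a8fl/flCx3cr1Cre livers, against 9.06, 3.23, 8.44, 7.19 and 4.76 CPM in HFD-fed S100a8fl/fl livers. On chow, Col5a2 was at 2.16, 2.32, 2.2, 1.39 and 1.47 CPM in chow-fed S100a8fl/flCx3cr1Cre livers, against 1.18, 0.776, 1.56 and 2.02 CPM in chow-fed S100a8fl/fl livers. The log2 fold change with diet was 2.78 (edgeR adjusted p = 7.91e-07) in S100a8fl/flCx3cr1Cre and 2.23 (edgeR adjusted p = 2.9e-05) in S100a8fl/fl livers, and the log2 fold change between the HFD-fed genotypes, 1.01 (edgeR adjusted p = 0.0756), missed the threshold although their ranges did not overlap. Col27a1 was lower on HFD in both genotypes. It was at 51.3, 54.5, 67.5 and 75.9 CPM in HFD-fed S100a8fl/flCx3cr1Cre livers, against 140.2, 104, 116, 101 and 111 CPM in chow-fed S100a8fl/flCx3cr1Cre livers (fitted change -0.88 on the log2 scale, standard error 0.14, edgeR adjusted p = 0.000178). In the other genotype Col27a1 was at 43.2, 45.8, 51.7, 47.7 and 54.02 CPM in HFD-fed S100a8fl/fl livers, against 152, 88.7, 120.2 and 127 CPM in chow-fed S100a8fl/fl livers (fitted change -1.33 on the log2 scale, standard error 0.14, edgeR adjusted p = 2.4e-06). Summed over the 5 chains Col1a1, Col1a2, Col3a1, Col5a1 and Col5a2, the level was 263 to 359.8 CPM in HFD-fed S100a8fl/flCx3cr1Cre livers, against 152 to 359 CPM in HFD-fed S100a8fl/fl livers. On chow the sum was 25.5 to 58.8 CPM in S100a8fl/flCx3cr1Cre livers, against 25.4 to 46.5 CPM in S100a8fl/fl livers.

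All 4 network collagens were higher on HFD in both genotypes. Col4a1 was at 39.6, 39.2, 46.4 and 33.8 CPM in HFD-fed S100a8fl/flCx3cr1Cre livers, against 52.9, 26.96, 47.7, 43.7 and 42.8 CPM in HFD-fed S100a8fl/fl livers. On chow, Col4a1 was at 9.69, 9.45, 11.4, 12.7 and 11.4 CPM in chow-fed S100a8fl/flCx3cr1Cre livers, against 11.8, 11.3, 13.5 and 12.1 CPM in chow-fed S100a8fl/fl livers. The diets did not overlap, and the log2 fold change with diet was 1.87 (edgeR adjusted p = 5.44e-08) in S100a8fl/flCx3cr1Cre and 1.81 (edgeR adjusted p = 2.75e-07) in S100a8fl/fl livers. Col4a2 was at 28.5, 24.4, 30.9 and 21 CPM in HFD-fed S100a8fl/flCx3cr1Cre livers, against 31.3, 19.4, 27.8, 31.3 and 22.9 CPM in HFD-fed S100a8fl/fl livers. On chow, Col4a2 was at 9.65, 6.88, 6.91, 8.29 and 6.25 CPM in chow-fed S100a8fl/flCx3cr1Cre livers, against 6.91, 9.59, 9.97 and 11.1 CPM in chow-fed S100a8fl/fl livers. Its log2 fold change with diet was 1.78 (edgeR adjusted p = 4.56e-07) in S100a8fl/flCx3cr1Cre and 1.5 (edgeR adjusted p = 6.1e-06) in S100a8fl/fl livers. Every HFD-fed liver again lay above every chow-fed one. Col8a1 had a log2 fold change with diet of 2.64 (edgeR adjusted p = 6.96e-05) in S100a8fl/flCx3cr1Cre livers and 1.26 (edgeR adjusted p = 0.0267) in S100a8fl/fl livers, and the S100a8fl/fl call was lost without chow-fed S100a8fl/fl mouse 1, 2 or 4 or HFD-fed S100a8fl/fl mouse 1 or 3 (adjusted p = 0.0581 to 0.0721). Col4a5 had a log2 fold change with diet of 1.92 (edgeR adjusted p = 0.000212) in S100a8fl/flCx3cr1Cre livers and 1.1 (edgeR adjusted p = 0.0234) in S100a8fl/fl livers, the S100a8fl/fl call being lost without chow-fed S100a8fl/fl mouse 1 or 4 or HFD-fed S100a8fl/fl mouse 1 or 5 (adjusted p = 0.0513 to 0.0761).

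The beaded filament and FACIT chains were all higher on HFD as well. Col6a1 was at 16.6, 17.7, 17.2 and 15.4 CPM in HFD-fed S100a8fl/flCx3cr1Cre livers, against 21.8, 14.04, 19.03, 15.9 and 14.8 CPM in HFD-fed S100a8fl/fl livers. On chow, Col6a1 was at 4.72, 2.45, 4.76, 3.61 and 4.13 CPM in chow-fed S100a8fl/flCx3cr1Cre livers, against 3.43, 3.27, 6.16 and 4.46 CPM in chow-fed S100a8fl/fl livers. HFD over chow gave it a log2 fold change of 2.09 (edgeR adjusted p = 3.79e-07) in S100a8fl/flCx3cr1Cre and 1.98 (edgeR adjusted p = 1.57e-06) in S100a8fl/fl livers. The diets did not overlap. Col6a3 was at 16.5, 18, 15.1 and 13.6 CPM in HFD-fed S100a8fl/flCx3cr1Cre livers, against 19.4, 10.9, 11.9, 12.1 and 14.2 CPM in HFD-fed S100a8fl/fl livers. On chow, Col6a3 was at 5.63, 2.74, 5.12, 2.22 and 4.89 CPM in chow-fed S100a8fl/flCx3cr1Cre livers, against 2.501, 3.05, 5.38 and 3.895 CPM in chow-fed S100a8fl/fl livers. Between the diets its log2 fold change was 1.94 (edgeR adjusted p = 1.52e-05) in S100a8fl/flCx3cr1Cre and 1.88 (edgeR adjusted p = 4.15e-05) in S100a8fl/fl livers. The diets were apart for this chain too. Col14a1 was at 63.7, 54.4, 58.8 and 53.1 CPM in HFD-fed S100a8fl/flCx3cr1Cre livers, against 79.7, 54.5, 59.5, 68.3 and 69.9 CPM in HFD-fed S100a8fl/fl livers. On chow, Col14a1 was at 11.3, 7.89, 14.6, 15.7 and 18.9 CPM in chow-fed S100a8fl/flCx3cr1Cre livers, against 16.7, 7.32, 17.1 and 13 CPM in chow-fed S100a8fl/fl livers. The log2 fold change with diet was 2.08 (edgeR adjusted p = 1.54e-06) in S100a8fl/flCx3cr1Cre and 2.29 (edgeR adjusted p = 1.32e-06) in S100a8fl/fl livers. For these 3 chains the HFD-fed genotypes overlapped. Col16a1 and Col12a1 were also called in both genotypes, with log2 fold changes of 1.87 and 1.06 in S100a8fl/flCx3cr1Cre livers and 1.85 and 0.96 in S100a8fl/fl livers. None of these 6 chains was called between the HFD-fed genotypes.

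Col15a1 was at 10.6, 10.1, 12.7 and 11.9 CPM in HFD-fed S100a8fl/flCx3cr1Cre livers, against 10.2, 12.1, 16.6, 12.9 and 9.901 CPM in HFD-fed S100a8fl/fl livers. On chow, Col15a1 was at 6.71, 10.9, 4.66, 4.34 and 3.91 CPM in chow-fed S100a8fl/flCx3cr1Cre livers, against 5.39, 7.65, 6.5 and 10.3 CPM in chow-fed S100a8fl/fl livers. Its log2 fold change with diet was 0.88 (edgeR adjusted p = 0.0129) in S100a8fl/flCx3cr1Cre and 0.73 (edgeR adjusted p = 0.0395) in S100a8fl/fl livers, and the S100a8fl/fl call was lost without chow-fed S100a8fl/fl mouse 1, 2 or 4 or HFD-fed S100a8fl/fl mouse 2, 3 or 4 (adjusted p = 0.0526 to 0.116). The diets overlapped in both genotypes. Col18a1 was at 700.5, 646, 647 and 752 CPM in HFD-fed S100a8fl/flCx3cr1Cre livers, against 759.9, 715, 858, 819.5 and 706 CPM in HFD-fed S100a8fl/fl livers. On chow, Col18a1 was at 920.3, 996, 727, 626 and 609 CPM in chow-fed S100a8fl/flCx3cr1Cre livers, against 546, 636, 864 and 1029 CPM in chow-fed S100a8fl/fl livers. Its groups overlapped throughout, with log2 fold changes with diet of -0.18 (edgeR adjusted p = 0.455) in S100a8fl/flCx3cr1Cre and 0.00 (edgeR adjusted p = 0.986) in S100a8fl/fl livers. Col7a1 was at 0.207, 0.231, 0.646, 0.3698 and 0.334 CPM in HFD-fed S100a8fl/fl livers, against 1.18, 0.444, 1.17 and 1.13 CPM in chow-fed S100a8fl/fl livers (fitted change -1.45 on the log2 scale, standard error 0.50, edgeR adjusted p = 0.0377). In the other genotype Col7a1 was at 0.376, 0.358, 0.517 and 0.683 CPM in HFD-fed S100a8fl/flCx3cr1Cre livers, against 0.822, 1.39, 1.64, 0.222 and 0.326 CPM in chow-fed S100a8fl/flCx3cr1Cre livers, a log2 fold change of -0.88 (edgeR adjusted p = 0.192) that was not called. The call in S100a8fl/fl livers was lost without chow-fed S100a8fl/fl mouse 1, 4 or 5 or HFD-fed S100a8fl/fl mouse 1, 2, 4 or 5 (adjusted p = 0.0646 to 0.0854).

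Lamb2 and Lama5 were the 2 members that differed between the HFD-fed genotypes, both being higher in S100a8fl/flCx3cr1Cre livers. Lamb2 was at 11.8, 13.4, 12.6 and 14 CPM in HFD-fed S100a8fl/flCx3cr1Cre livers, against 6.74, 4.71, 5.296, 7.396 and 6.73 CPM in HFD-fed S100a8fl/fl livers (fitted change 1.07 on the log2 scale, standard error 0.16, edgeR adjusted p = 0.000881). On chow, Lamb2 was at 5.02, 4.94, 4.09, 3.23 and 4.57 CPM in chow-fed S100a8fl/flCx3cr1Cre livers, against 4.71, 3.16, 3.91 and 4.55 CPM in chow-fed S100a8fl/fl livers. The HFD groups did not overlap, and the chow groups did. Lama5, an alpha chain of laminins in mature vessels and epithelia, was at 7.18, 6.68, 6.37 and 7.001 CPM in HFD-fed S100a8fl/flCx3cr1Cre livers, against 3.31, 2.91, 2.54, 4.48 and 3.802 CPM in HFD-fed S100a8fl/fl livers (fitted change 1.0 on the log2 scale, standard error 0.21, edgeR adjusted p = 0.0164). On chow, Lama5 was at 3.42, 4.01, 2.2, 2.61 and 2.45 CPM in chow-fed S100a8fl/flCx3cr1Cre livers, against 2.26, 3.11, 3.91 and 4.08 CPM in chow-fed S100a8fl/fl livers. All 4 HFD-fed S100a8fl/flCx3cr1Cre livers stood above the other 14 livers for both genes. The call of Lama5 was lost without HFD-fed S100a8fl/fl mouse 2 or 3 or HFD-fed S100a8fl/flCx3cr1Cre mouse 1 or 5 (adjusted p = 0.0566 to 0.0639), which left 1 called member, and 3 were called without HFD-fed S100a8fl/fl mouse 1. The interaction on the log2 scale was 0.97 (edgeR adjusted p = 0.132) for Lamb2 and 1.17 (edgeR adjusted p = 0.197) for Lama5, so that a difference between the diet effects was not shown by edgeR. The ratio of Lamb2 to Lamb1 in CPM was 1.504 ± 0.125 in HFD-fed S100a8fl/flCx3cr1Cre livers (SD, n = 4) and 0.634 ± 0.112 in HFD-fed S100a8fl/fl livers (SD, n = 5), a description without a test.

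The same 4 livers held more RNA of smooth muscle and portal fibroblast markers and of 2 of 6 adipocyte markers, and the part of this in the results was not tested. Between the HFD-fed genotypes 0.854% of all genes were higher and 0.0289% lower. The 7 of 9 vascular smooth muscle markers in the table summed to 235 to 261 CPM in HFD-fed S100a8fl/flCx3cr1Cre livers, against 78.8 to 116 CPM in HFD-fed S100a8fl/fl livers, with 5 of 7 higher. Of these, smooth muscle actin, Acta2, was at 97.9 to 120 CPM in HFD-fed S100a8fl/flCx3cr1Cre livers, against 5.36 to 24.5 CPM in HFD-fed S100a8fl/fl livers. Smooth muscle myosin, Myh11, was at 31.4 to 34.4 CPM in HFD-fed S100a8fl/flCx3cr1Cre livers, against 1.34 to 8.48 CPM in HFD-fed S100a8fl/fl livers. In none of the 4 groups was a smooth muscle marker at 0 in every library. The 11 of 13 portal or adventitial fibroblast markers in the table summed to 265 to 277 CPM in HFD-fed S100a8fl/flCx3cr1Cre livers, against 77.2 to 116.9 CPM in HFD-fed S100a8fl/fl livers, with 8 of 11 higher. Of the 6 of 8 adipocyte markers in the table, 2 were higher, and their sum was 3134 to 3693 CPM in HFD-fed S100a8fl/flCx3cr1Cre livers, against 3002 to 4124 CPM in HFD-fed S100a8fl/fl livers. The fat cell hormone Adipoq was at 6.45 to 7.88 CPM in HFD-fed S100a8fl/flCx3cr1Cre livers, against 0.517 to 1.73 CPM in HFD-fed S100a8fl/fl livers. All 14 stellate cell markers were in the table, at a summed 444 to 485 CPM in HFD-fed S100a8fl/flCx3cr1Cre livers, against 414 to 603 CPM in HFD-fed S100a8fl/fl livers, with 0 of 14 called.

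**Figure D5:**
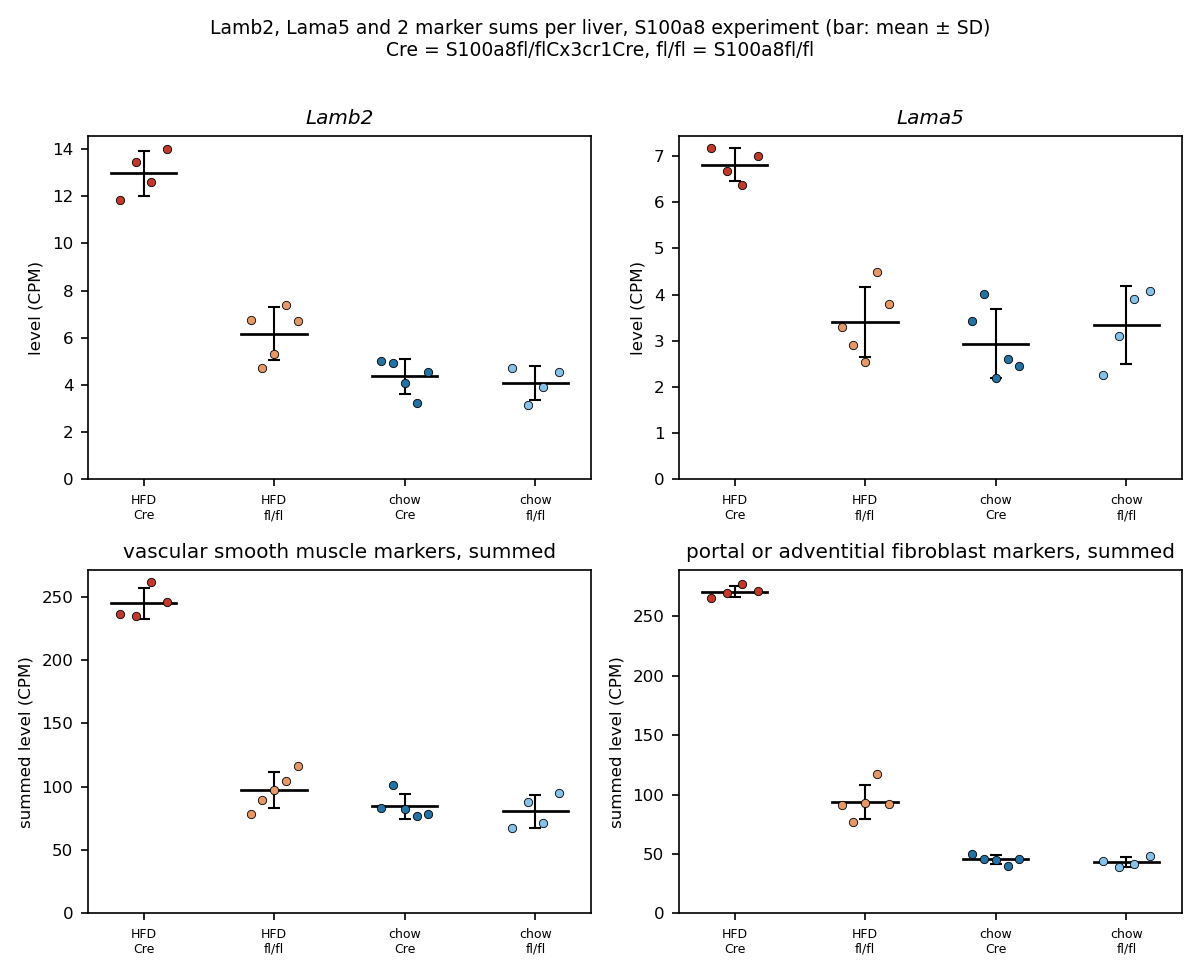
Levels of Lamb2 and Lama5 and summed levels of the vascular smooth muscle and the portal or adventitial fibroblast markers in each liver of the S100a8 experiment (CPM, points: livers, bars: mean ± SD). The 4 HFD-fed S100a8fl/flCx3cr1Cre livers lie above the other 14 livers in each panel, as for Lamb2 at 11.8 to 14 CPM, against 4.71 to 7.40 CPM in HFD-fed S100a8fl/fl livers.

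No other laminin chain was called between the HFD-fed genotypes. Lamb1 was at 7.39, 10.1, 8.44 and 8.84 CPM in HFD-fed S100a8fl/flCx3cr1Cre livers, against 11.4, 9.696, 7.104, 9.902 and 11.2 CPM in HFD-fed S100a8fl/fl livers. On chow, Lamb1 was at 2.34, 1.94, 3.27, 3.78 and 3.098 CPM in chow-fed S100a8fl/flCx3cr1Cre livers, against 4.66, 2.38, 3.81 and 2.63 CPM in chow-fed S100a8fl/fl livers. HFD over chow gave it a log2 fold change of 1.6 (edgeR adjusted p = 2.2e-05) in S100a8fl/flCx3cr1Cre and 1.54 (edgeR adjusted p = 4.63e-05) in S100a8fl/fl livers. Every HFD-fed liver exceeded every chow-fed one. Lamc1 was at 17.1, 13.2, 14.3 and 13.3 CPM in HFD-fed S100a8fl/flCx3cr1Cre livers, against 17.7, 13.7, 14.3, 14.1 and 17.5 CPM in HFD-fed S100a8fl/fl livers. On chow, Lamc1 was at 11.4, 10.1, 8.85, 8.23 and 9.89 CPM in chow-fed S100a8fl/flCx3cr1Cre livers, against 9.76, 7.93, 9.72 and 9.25 CPM in chow-fed S100a8fl/fl livers. Between the diets its log2 fold change was 0.58 (edgeR adjusted p = 0.00168) in S100a8fl/flCx3cr1Cre and 0.75 (edgeR adjusted p = 0.000243) in S100a8fl/fl livers. The same held for this gamma chain. Lama2 was at 2.42, 1.91, 2.497 and 2.09 CPM in HFD-fed S100a8fl/flCx3cr1Cre livers, against 1.78, 1.06, 1.59, 1.68 and 1.63 CPM in HFD-fed S100a8fl/fl livers. On chow, Lama2 was at 0.0866, 0.253, 1.13, 0.111 and 1.304 CPM in chow-fed S100a8fl/flCx3cr1Cre livers, against 0.147, 0.499, 0.538 and 0.282 CPM in chow-fed S100a8fl/fl livers. The log2 fold change with diet was 1.97 (edgeR adjusted p = 0.00651) in S100a8fl/flCx3cr1Cre and 2.08 (edgeR adjusted p = 0.0104) in S100a8fl/fl livers. The diets did not overlap within either genotype, and the HFD-fed genotypes did not overlap either, although the difference between them was not called. Lama4 was at 4.13, 4.29, 4.48 and 5.34 CPM in HFD-fed S100a8fl/flCx3cr1Cre livers, against 4.55, 2.26, 1.81, 2.38 and 2.97 CPM in HFD-fed S100a8fl/fl livers. On chow, Lama4 was at 1.73, 1.77, 2.97, 1.84 and 2.07 CPM in chow-fed S100a8fl/flCx3cr1Cre livers, against 2.599, 1.28, 1.42 and 2.11 CPM in chow-fed S100a8fl/fl livers. Its log2 fold change with diet was 1.14 (edgeR adjusted p = 0.00296) in S100a8fl/flCx3cr1Cre livers, a call, and 0.59 (edgeR adjusted p = 0.112) in S100a8fl/fl livers, and the interaction of 0.55 (edgeR adjusted p = 0.946) did not show these to differ.

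The chains Lama3 and Lamb3 of the epithelial laminin again parted with diet. Lamb3 was at 23.1, 23.3, 20.7 and 23.4 CPM in HFD-fed S100a8fl/flCx3cr1Cre livers, against 2.68, 4.73, 5.37, 2.89 and 6.14 CPM in chow-fed S100a8fl/flCx3cr1Cre livers (fitted change 2.38 on the log2 scale, standard error 0.23, edgeR adjusted p = 4.78e-07). In the other genotype Lamb3 was at 21.6, 28.2, 35.8, 27.4 and 27.9 CPM in HFD-fed S100a8fl/fl livers, against 4.41, 9.87, 5.57 and 6.24 CPM in chow-fed S100a8fl/fl livers (fitted change 2.12 on the log2 scale, standard error 0.23, edgeR adjusted p = 3e-06). Lama3 was at 0.626, 0.238, 1.55 and 3.84 CPM in HFD-fed S100a8fl/flCx3cr1Cre livers, against 6.36, 4.98, 4.04, 3.003 and 3.53 CPM in chow-fed S100a8fl/flCx3cr1Cre livers (fitted change -1.5 on the log2 scale, standard error 0.48, edgeR adjusted p = 0.0243). In the other genotype Lama3 was at 0.745, 1.2, 1.46, 1.36 and 0.877 CPM in HFD-fed S100a8fl/fl livers, against 2.55, 4.55, 5.96 and 5.21 CPM in chow-fed S100a8fl/fl livers (fitted change -2.01 on the log2 scale, standard error 0.48, edgeR adjusted p = 0.00435). Lamb3 was therefore higher on HFD and Lama3 lower, without overlap except that HFD-fed S100a8fl/flCx3cr1Cre mouse 5 lay within the chow range of Lama3. The counts of Lamb3 are uncertain here too, because of the genes that overlap it. The Lama3 call in S100a8fl/flCx3cr1Cre livers was lost without chow-fed S100a8fl/flCx3cr1Cre mouse 1 or HFD-fed S100a8fl/flCx3cr1Cre mouse 1, 3 or 4 (adjusted p = 0.0551 to 0.0801). Lama1 had a log2 fold change with diet of 0.83 (edgeR adjusted p = 0.0467) in S100a8fl/flCx3cr1Cre livers and 1.39 (edgeR adjusted p = 0.00262) in S100a8fl/fl livers, and the S100a8fl/flCx3cr1Cre call was lost without chow-fed S100a8fl/flCx3cr1Cre mouse 1, 2 or 3 or HFD-fed S100a8fl/flCx3cr1Cre mouse 1 or 5 (adjusted p = 0.0615 to 0.201). Lamc3 was not called.

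Nid1 was at 13.6, 13.9, 16.2 and 12.8 CPM in HFD-fed S100a8fl/flCx3cr1Cre livers, against 37.4, 15.6, 18.1, 21.1 and 20.5 CPM in HFD-fed S100a8fl/fl livers. On chow, Nid1 was at 3.07, 2.701, 6.45, 4.12 and 5.49 CPM in chow-fed S100a8fl/flCx3cr1Cre livers, against 4.66, 3.88, 6.21 and 3.99 CPM in chow-fed S100a8fl/fl livers. The diets did not overlap, and the log2 fold change with diet was 1.71 (edgeR adjusted p = 6.68e-05) in S100a8fl/flCx3cr1Cre and 2.26 (edgeR adjusted p = 6.67e-06) in S100a8fl/fl livers. Hspg2 was at 32.5, 30.4, 31.6 and 33.6 CPM in HFD-fed S100a8fl/flCx3cr1Cre livers, against 26.1, 16.1, 20.7, 27.7 and 21.8 CPM in HFD-fed S100a8fl/fl livers. On chow, Hspg2 was at 14.9, 11.9, 12.5, 15.6 and 10.2 CPM in chow-fed S100a8fl/flCx3cr1Cre livers, against 13.7, 8.43, 14.1 and 13.9 CPM in chow-fed S100a8fl/fl livers. HFD over chow gave it a log2 fold change of 1.3 (edgeR adjusted p = 1.05e-05) in S100a8fl/flCx3cr1Cre and 0.84 (edgeR adjusted p = 0.00111) in S100a8fl/fl livers. All HFD-fed livers lay above all chow-fed ones, and the HFD-fed genotypes did not overlap, without a call between them. Nid2 and Agrn were called in no comparison of this experiment, and neither were Col5a3, Col11a2 and Col13a1.

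On HFD over chow, 16.1% of all genes were higher and 12.8% lower in S100a8fl/flCx3cr1Cre livers, and 14.5% and 13% in S100a8fl/fl livers. Of 28 genes of collagen processing and crosslinking in the table of this experiment, 17 were higher and 4 lower on HFD in S100a8fl/flCx3cr1Cre livers and 15 were higher and 2 lower in S100a8fl/fl livers. Serpinh1, the collagen chaperone, was among them at 2.02 in S100a8fl/flCx3cr1Cre livers (edgeR adjusted p = 4.36e-08) and 1.53 in S100a8fl/fl livers (edgeR adjusted p = 2.62e-06). Between the HFD-fed genotypes 0.854% of all genes were higher in S100a8fl/flCx3cr1Cre livers. Lox was the 1 gene of the list called there, higher in S100a8fl/flCx3cr1Cre livers by 2.61 (standard error 0.42, edgeR adjusted p = 0.00185). Of the 15 receptors, Bcam, a laminin receptor that binds the Lama5 chain, was higher by 0.84 (edgeR adjusted p = 0.0129) and Sgcb, a sarcoglycan of the dystrophin complex, by 1.04 (edgeR adjusted p = 0.039). Of 19 profibrotic signals, 3 were higher between the HFD-fed genotypes: Ccn2 by 1.63 (edgeR adjusted p = 0.00227), and the latent TGF-beta binding proteins Ltbp1 by 1.3 (edgeR adjusted p = 0.00202) and Ltbp2 by 1.36 (edgeR adjusted p = 0.0132). On HFD over chow 12 of these 19 were higher in each genotype and 0 lower. The stellate cell markers summed to 99.3 to 241 CPM in chow-fed S100a8fl/flCx3cr1Cre and 114 to 297 CPM in chow-fed S100a8fl/fl livers, below the HFD-fed livers, and 12 of 14 were higher on HFD in S100a8fl/flCx3cr1Cre and 13 of 14 in S100a8fl/fl livers. Markers of other cell types were higher with diet too. Of these, 11 of 12 endothelial, 7 of 8 macrophage, 10 of 11 portal or adventitial fibroblast and 6 of 7 vascular smooth muscle markers were higher in HFD-fed than in chow-fed S100a8fl/flCx3cr1Cre livers, where 16.1% of all genes were higher. In S100a8fl/fl livers 9 of 12 endothelial, 5 of 8 macrophage, 6 of 11 portal or adventitial fibroblast and 1 of 7 vascular smooth muscle markers were higher on HFD, where 14.5% of all genes were higher. Of the 9 hepatocyte markers, 3 were lower on HFD in S100a8fl/flCx3cr1Cre and 2 in S100a8fl/fl livers, and 0 were higher in either. The part of these markers in the diet effects was not tested.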

How the data were processed

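Total RNA was extracted from whole livers and polyadenylated RNA was sequenced. The submitters' processing notes name FastQC, Trimmomatic, HISAT2, SAMtools, featureCounts and DESeq2 with GRCm38 and no versions, and whether counting used the strand is not given in the sources used here. The deposited tables hold the raw count per gene as the authors made it. Their columns of fold changes and p-values were not used. Genes listed more than once with identical counts were kept once, leaving 14436 and 13817 genes. The tables list no gene below a mean count of 7.12 and 8.67.

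Counts were fitted in edgeR 4.0.16 (R 4.3.3) with TMM scaling, filterByExpr and a quasi-likelihood model of the 4 groups of an experiment, with Benjamini-Hochberg adjustment over all genes and calls at an adjusted p under 0.05. The fit was tested on simulated data. Alternatives were DESeq2 1.42.0, RLE size factors, no filter (filterByExpr removed 0 genes, so this tests nothing), a stricter filter of 1 CPM (762 and 56 genes removed), the 2 groups alone, the mouse number as a block, each mouse left out, and the 2 libraries least like their groups left out. Exon lengths came from GENCODE M21 and promoter windows from RefSeq. The members and lists were chosen with earlier results of these data known.

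Any member could be named. All values are given for 18 core members and for up to 4 members with the highest and 4 with the lowest log2 fold change among those called with at least 1 CPM in a group. Of listed genes, up to 4 with the smallest p per comparison could be named. Bcl2 and the markers served as checks. The main fit used no pairing of mice, and the mouse number entered only as a block in an alternative. Same-numbered mice were examined for deviations that correlated above 0.1 in every pair, over 3 or more pairs. This held for HFD-fed WT and chow-fed WT mice (0.134 to 0.15 over 3 pairs) and for no other comparison. Nothing in the labels says what the numbers mark. One chain gene listed in 1 table only is not reported here.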

Additional observations from a re-analysis of the deposited data

Results flagged for a closer look

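Of 108 groups of 4 or 5 livers examined for the 18 core members, 6 held 1 liver far from the others, where chance gives about 1 group in 20. Nid1 was at 7.40 CPM in HFD-fed Bcl2AdTG mouse 6, against 13.7 to 16.1 CPM in the other 4, and at 37.4 CPM in HFD-fed S100a8fl/fl mouse 1, against 15.6 to 21.1 CPM in the other 4. Col1a2 was at 70.0 CPM in HFD-fed S100a8fl/flCx3cr1Cre mouse 5, against 97.6 to 103 CPM in the other 3. Lama2 was at 1.06 CPM in HFD-fed S100a8fl/fl mouse 2, against 1.59 to 1.78 CPM in the other 4. Lama4 was at 2.97 CPM in chow-fed S100a8fl/flCx3cr1Cre mouse 3, against 1.73 to 2.07 CPM in the other 4. Hspg2 was at 8.43 CPM in chow-fed S100a8fl/fl mouse 2, against 13.7 to 14.1 CPM in the other 3.

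The diet effect differed between Bcl2AdTG and WT livers for Col1a1 (interaction -2.67 on the log2 scale), Col3a1 (-1.81) and Col1a2 (-1.74), by the edgeR test of the interaction itself. Of these 3 calls, 0 were kept without each mouse in turn.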

How the results depend on the processing

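No call of a member turned direction under any alternative run. Leaving out 1 mouse at a time gave 15 to 20 called members for Bcl2AdTG over WT on HFD, 18 to 21 for HFD over chow in WT, 0 to 2 in Bcl2AdTG, 26 to 28 in S100a8fl/flCx3cr1Cre and 23 to 26 in S100a8fl/fl livers, 1 to 3 for S100a8fl/flCx3cr1Cre over S100a8fl/fl on HFD, 0 to 4 for the interaction of HFD with Bcl2AdTG, and 0 to 0 for the genotypes on chow and for the interaction with S100a8fl/flCx3cr1Cre. In HFD-fed over chow-fed Bcl2AdTG livers RLE size factors, the stricter filter, the 2 groups alone and the replicate block each gave 1 call, DESeq2 gave 2, and leaving out HFD-fed Bcl2AdTG mouse 6 and chow-fed WT mouse 2 gave 4. DESeq2 gave 8 for the interaction with Bcl2AdTG, 4 for the S100a8 genotypes on HFD and 2 for the interaction with S100a8fl/flCx3cr1Cre. The replicate block gave 11 for Bcl2AdTG over WT on HFD, where the deviations of same-numbered mice correlated at -0.167 to 0.173. The calls lost there were those of Col6a1, Col6a2, Col6a3, Col8a1, Col12a1, Col15a1, Lamb1, Lamb2 and Lamc1. The cause of these moves was not tested. Of the 20 members called for Bcl2AdTG over WT on HFD, 15 kept the call without each mouse in turn. At this depth members near 1 CPM, such as Col8a1, rest on few counts, and groups of 3 chow-fed mice limit the interaction.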

Other observations

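Some further chain genes are listed in 1 table only. Col20a1, a FACIT chain, was at 0.468 to 1.36 CPM in HFD-fed WT livers, against 2.34 to 3.08 CPM in chow-fed WT livers (log2 fold change -1.38, edgeR adjusted p = 0.0174). Col4a3 and Col4a4, the type IV chains of the glomerulus, were called in no comparison of the Bcl2AdTG experiment. Col4a6, encoded head to head with Col4a5, was at 1.29 to 2.02 CPM in HFD-fed S100a8fl/flCx3cr1Cre livers, against 0 to 0.844 CPM in chow-fed S100a8fl/flCx3cr1Cre livers (log2 fold change 2.29, edgeR adjusted p = 0.0218). Col6a6, a type VI chain, was called in no comparison of the S100a8 experiment.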
